A study of Mus musculus with 6 samples.

Results

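Semaphorins, their plexin and neuropilin receptors, and the collapsin response mediator proteins (CRMPs) that act inside the cell were followed in mouse neural stem progenitor cells given PTN. The genes were taken by symbol from the deposited gene table: semaphorins of classes 3 to 7, plexins A to D, the neuropilins Nrp1 and Nrp2, Crmp1, and Dpysl2 to Dpysl5. This gave 36 of 22322 genes, namely 20 semaphorins, 9 plexins, 2 neuropilins and 5 CRMPs. A count of 10 or more in at least 3 libraries was reached by 35 of them, and the same 35 were tested. The exception was Sema3g, for which the 3 Control libraries held 1, 2 and 2 counts and the 3 PTN libraries 4, 6 and 12.

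The cells were wild type, and RNA was taken 24 h after addition of PTN (3 libraries) or of the vehicle PBS, the Control group (3 libraries). PTN is taken to be pleiotrophin, a secreted heparin-binding growth factor, and according to the series title it was added in a conditioned medium setting. The labels and titles used here name neither its amount nor the strain, the age of the source animals or the passage of the cells. Nothing in the labels tells whether replicates are separate cultures, so every p-value below measures the spread between these libraries, which may be technical.

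Semaphorins are cell surface or secreted signals best known for steering axons, and in the developing brain they also act on migrating neuroblasts, glial precursors and vessels. Most bind plexins, single-pass receptors whose cytoplasmic part switches off small GTPases of the Ras and Rap type. Secreted class 3 members mostly need a neuropilin as the binding subunit beside an A-type or D-type plexin. CRMPs bind tubulin and carry the collapse signal to the cytoskeleton of the growth cone, and they mark young neurons.

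Libraries held 19267764 to 26341745 expected counts. Transcripts of mitochondrial DNA took 4.47% to 7.47% of the counts in Control and 3.97% to 8.12% in PTN libraries, and the summed Y-linked mRNAs lay at 49.3 to 102 CPM, counts scaled to library size in Control and 7.96 to 74.2 CPM in PTN libraries, with PTN 3 the lowest. The 10 neural stem and progenitor markers summed to 7301 to 8390 CPM in Control and 9822 to 10984 CPM in PTN, with 1 called higher (Vim) and 1 lower (Hes5). Astrocyte markers summed to 8015 to 8329 CPM and 2458 to 5291 CPM (3 of 7 lower). Called lower were Gfap (means of 3652 CPM in Control and 813 CPM in PTN), Aldoc (1264 and 303 CPM) and the scarce Gjb6. Aldh1l1 and Slc1a2 had negative log2 fold changes without a call. S100b (log2 change 0.65) and Aqp4 (0.24) went the other way, also without a call. Oligodendrocyte lineage markers summed to 1321 to 1512 and 1138 to 1498 CPM (2 of 9 lower, 1 higher). Olig1 and Olig2, not called, carried most of the oligodendrocyte sum, while the precursor markers Pdgfra (95.3 to 24.4 CPM) and Cspg4 (63.1 to 34.9 CPM) fell, and Sox10 went from 35.9 to 12.1 CPM without a call. Sums of endothelial and mural markers were 10.5 to 13.2 and 7.10 to 9.52 CPM (1 of 8 lower). The gene that fell was Pdgfrb (6.06 to 1.08 CPM). Pecam1 had a positive and Rgs5 a negative log2 fold change without a call, and the others were too scarce to be tested. Sums of fibroblast and meninges markers were 9.56 to 10.6 and 11.3 to 22.8 CPM (1 of 5 higher). The gene that rose was Foxc1 (5.74 to 15.6 CPM). Col1a1 and Col1a2 had negative log2 fold changes and Dcn a positive one, none called. Sums of ependyma and choroid plexus markers were 72.7 to 91.6 and 59.6 to 109 CPM (0 of 5 called). Microglial markers summed to at most 1.82 CPM in any library, with Aif1 and Ptprc at 3 counts or fewer, and the ependymal gene Tmem212 had a mean of 0 CPM in both groups. The part of these shifts in cell markers in the results below was not tested, and in such bulk RNA fewer cells of a type and less RNA per cell cannot be told apart.

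After PTN, 10 of the 35 tested genes rose and 1 fell by edgeR's quasi-likelihood test at an adjusted p under 0.05, where 4.93% of all 13161 tested genes rose, 3.06% fell and 7.99% did either. In 14 of the 35 genes all PTN libraries lay above all Control libraries and in 5 all lay below, beside 15.7% and 17.1% of all tested genes (32.9% in either direction). Those that rose were the semaphorins Sema3a, Sema3b, Sema3c, Sema3e, Sema5a, Sema6a and Sema6d, the receptors Plxna4 and Nrp1, and the CRMP gene Dpysl3. Sema7a fell. The median log2 fold change of the 35 genes was 0.12, beside 0.03 over all tested genes. By role, 7 of 19 ligands rose and 1 fell, 2 of 11 receptors rose and 0 fell, and 1 of 5 CRMPs rose and 0 fell.

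**Figure D1:**
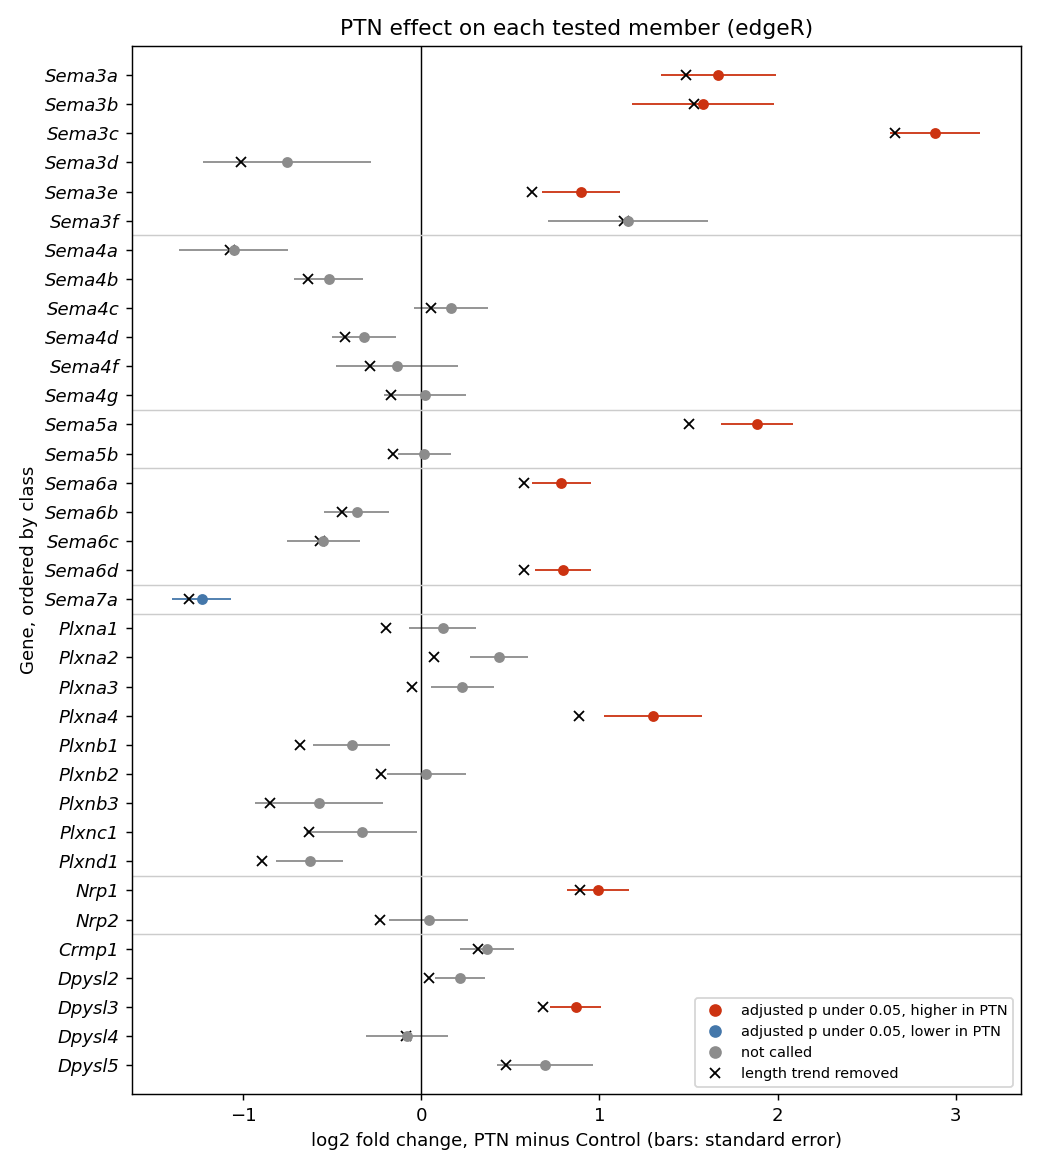
Log2 fold change, PTN minus Control, of the 35 tested genes by class, with the standard error as bars (n = 3 libraries per group). Red circles mark the 10 genes called higher, the blue circle Sema7a, the gene called lower, and crosses the values after a trend with gene length was removed, where 6 genes were higher and 1 lower. Of all 13161 tested genes, 495 were higher and 400 lower with the trend removed.

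Gene length bears on this count, because the genes are long and fold changes rose with length across the whole table. Lengths derived from count and FPKM (fragments scaled to gene length and library size) had a median of 4.66 kb for the 35 genes and 2.82 kb for all tested genes, and 14 of the 35 lay in the longest eighth. The median log2 fold change of all genes was -0.24 in the shortest eighth, which held 0 of the 35, and 0.31 in the longest. After the trend was removed from each library, 6 genes were called higher (Sema3a, Sema3c, Sema5a, Sema6a, Nrp1 and Dpysl3) and Sema7a was called lower. In that setting 495 of all 13161 tested genes were called higher and 400 lower. The median of the 35 genes was then -0.085, so the family as a whole did not keep its positive median.

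**Figure D2:**
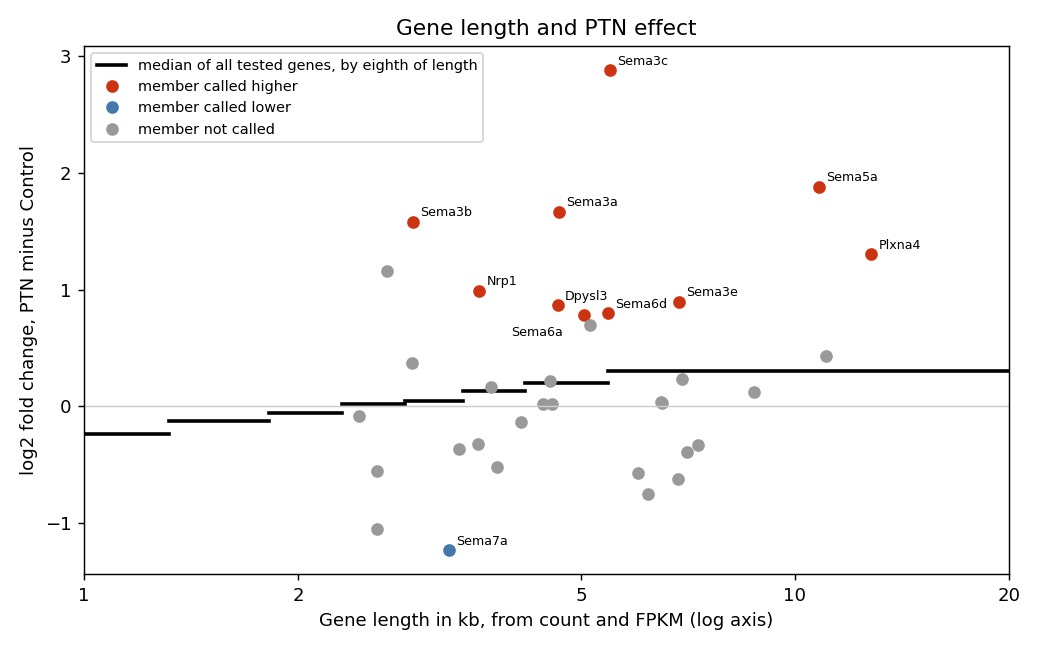
Log2 fold change, PTN minus Control, against gene length in kb (log axis) for the 35 tested genes as circles, with the median of all 13161 tested genes in each eighth of length as black lines (the first and last lines run past the axis). The lines climb from -0.24 to 0.31, and Sema3c, Sema5a, Sema3a and Sema3b lie far above the line at their length, while Sema7a lies far below.

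Of the class 3 semaphorins, the secreted class, 4 of 6 tested genes rose, where 4.93% of all tested genes rose, and the median log2 fold change of the 6 was 1.37. With the length trend removed, 2 of the 6 (Sema3a and Sema3c) were called higher. Sema3c, a guidance signal for migrating neurons and neural crest, was at 3.08, 5.12 and 5.05 CPM in Control 1, Control 2 and Control 3 and at 36.9, 35.5 and 25.5 CPM in PTN 1, PTN 2 and PTN 3. Every PTN library lay far above every Control library. The rise was 7.38-fold (log2 change 2.88, SE 0.25, adjusted p = 0.00135 by edgeR), and the rise was called without any 1 of the 6 libraries, with folds of 6.30 to 8.19 over all alternatives tried.

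Sema3a, the classic growth cone collapsing factor, was at 14.2, 23.1 and 20.5 CPM in Control and at 93.6, 40.3 and 49.6 CPM in PTN libraries. All PTN values were above all Control values, and PTN 1 was the highest by a wide margin. The rise was 3.18-fold (log2 change 1.67, SE 0.32, adjusted p = 0.0187 by edgeR, 0.078 when Control 1 and 0.0659 when Control 3 was left out).

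Sema3e, which binds plexin D1 without a neuropilin, was at 5.49, 6.38 and 6.74 CPM in Control and at 14.2, 9.05 and 11.3 CPM in PTN libraries. The groups did not overlap, and the rise was 1.86-fold (log2 change 0.90, SE 0.22, adjusted p = 0.0404 by edgeR). It was not called with the length trend removed (1.54-fold, adjusted p = 0.108 by edgeR), nor when either PTN 1 or any Control library was left out (adjusted p from 0.122 to 0.152 by edgeR).

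Sema3b, a member known as a tumour suppressor in lung cancer, stood at 2.54, 2.33 and 1.82 CPM in Control and at 3.76, 11.1 and 5.31 CPM in PTN libraries, PTN 2 being the highest. Its rise was 3.00-fold (log2 change 1.58, SE 0.40, adjusted p = 0.0457 by edgeR) and was no longer called, at nearly the same size, with the length trend removed (2.89-fold, adjusted p = 0.0582 by edgeR) and with upper-quartile factors (log2 change 1.54, adjusted p = 0.0504 by edgeR). It was also not called in limma-voom (adjusted p = 0.0782) and when either PTN 2 or any Control library was left out (0.07 to 0.163). In FPKM the groups overlapped, at 0.90, 1.78 and 0.93 in Control and 1.15, 3.74 and 1.68 in PTN libraries. The length that count and FPKM imply for Sema3b ranged from 1.30 to 3.25 kb between libraries, so counts and FPKM do not rank its libraries alike.

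Sema3f, a neuropilin 2 ligand that repels axons and endothelial cells, was at 10.5, 7.61 and 9.22 CPM in Control and at 22.0, 7.09 and 32.1 CPM in PTN libraries. PTN 2 lay below every Control library while PTN 1 and PTN 3 lay above, and the difference was not called (log2 change 1.16, SE 0.45, adjusted p = 0.146 by edgeR). Without PTN 2 it was called (log2 fold change 1.57, adjusted p = 0.0101 by edgeR), as it was by DESeq2's Wald test (adjusted p = 0.0408). Sema3d was low, at 1.23 to 2.45 CPM in Control and 0.468 to 1.69 CPM in PTN, and was not called (adjusted p = 0.322 by edgeR).

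Sema3d, Sema3a, Sema3e and Sema3c follow each other in this order on chromosome 5 in the RefSeq annotation of GRCm38.p6. No protein-coding gene lies between Sema3d and Sema3a, although Sema3a was called higher and Sema3d was not called. Between Sema3a and Sema3e lie 3 protein-coding genes, 0 of them tested, and between Sema3e and Sema3c lie 15, of which Pclo, Cacna2d1 and Hgf were tested and 0 were called. For Sema3a, Sema3e and Sema3c, which were called higher, the 300 bases around the start site are shown, 250 before and 50 after. The promoter of Sema7a, the gene that fell, is set beside them, and that of Sema3d is not shown. Sequences and positions are RefSeq's, GRCm38.p6, plus strand: chr5:13396534-13396833 for Sema3a, chr5:14025026-14025325 for Sema3e, chr5:17574566-17574865 for Sema3c and chr9:57939862-57940161 for Sema7a. Capitals mark matches on either strand to 6 searched motifs.
Sema3a: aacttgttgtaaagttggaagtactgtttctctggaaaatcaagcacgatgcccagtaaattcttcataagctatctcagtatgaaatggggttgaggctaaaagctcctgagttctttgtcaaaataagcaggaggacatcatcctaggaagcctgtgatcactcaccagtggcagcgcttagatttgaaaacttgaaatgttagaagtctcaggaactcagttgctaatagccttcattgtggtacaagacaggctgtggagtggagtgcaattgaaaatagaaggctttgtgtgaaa
Sema3e: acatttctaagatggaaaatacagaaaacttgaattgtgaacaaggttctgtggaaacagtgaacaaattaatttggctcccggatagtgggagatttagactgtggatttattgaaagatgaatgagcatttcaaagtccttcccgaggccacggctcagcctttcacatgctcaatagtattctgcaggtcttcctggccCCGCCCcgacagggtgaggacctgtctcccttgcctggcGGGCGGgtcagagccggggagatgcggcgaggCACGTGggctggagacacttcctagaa
Sema3c: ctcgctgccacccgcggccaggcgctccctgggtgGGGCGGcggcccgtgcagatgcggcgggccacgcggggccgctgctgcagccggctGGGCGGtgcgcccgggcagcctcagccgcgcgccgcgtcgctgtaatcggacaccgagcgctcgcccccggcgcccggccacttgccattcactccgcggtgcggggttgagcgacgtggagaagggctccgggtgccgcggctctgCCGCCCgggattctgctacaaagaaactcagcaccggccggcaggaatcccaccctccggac
Sema7a: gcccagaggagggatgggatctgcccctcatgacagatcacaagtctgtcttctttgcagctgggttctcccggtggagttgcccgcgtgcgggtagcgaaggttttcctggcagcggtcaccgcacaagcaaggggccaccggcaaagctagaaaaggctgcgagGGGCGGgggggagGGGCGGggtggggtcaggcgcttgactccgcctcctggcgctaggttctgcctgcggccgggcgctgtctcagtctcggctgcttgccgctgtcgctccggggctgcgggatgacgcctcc

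Sema3a, Sema3e and Sema3c had unlike promoters, although all 3 genes were called higher, Sema3e not with the length trend removed. G and C made up 41.3% of the Sema3a window, 50.7% of that of Sema3e and 75.7% of that of Sema3c, which held 2, 11 and 42 CpG pairs. The GC box GGGCGG had 0 matches in Sema3a, 2 in Sema3e, 3 in Sema3c and 2 in Sema7a, and 35.7% of all 32851 promoters of this length hold it. The E-box CACGTG, found in 7.15% of promoters, had a match in Sema3e. The TATA box TATAAA (13.6% of promoters), the AP-1 motif TGANTCA (7.81%), the cAMP response element TGACGTCA (1.79%) and the forkhead motif GTAAACA (3.65%) had no match in the 4 windows, which says only that those letters are not there.

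**Figure D3:**
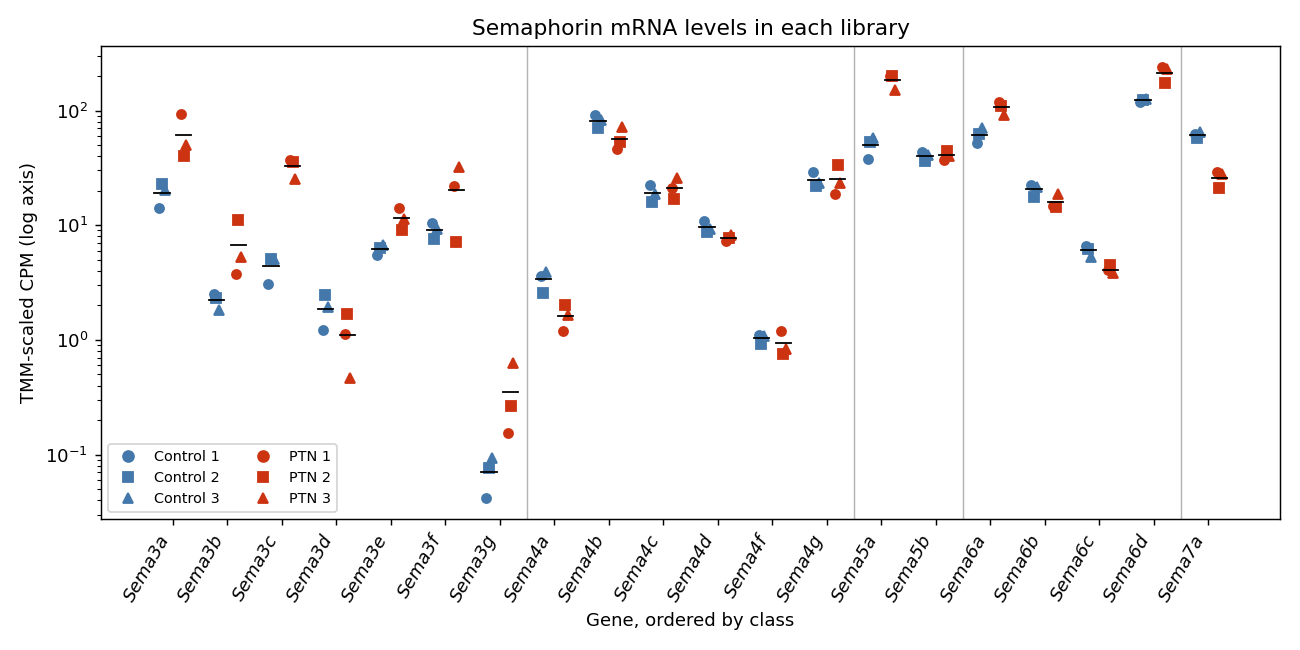
TMM-scaled CPM (log axis) of the 20 semaphorin genes in each Control (blue) and PTN (red) library, with black lines at the group means and grey lines between classes 3, 4, 5, 6 and 7. Among the tested genes Sema3c and Sema5a stand highest above their Control points, Sema7a stands below, and in Sema3f the PTN 2 square lies below the Control points. Sema3g, not tested, also stands above its Control points, at 1 to 12 counts per library.

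Class 4 semaphorins are transmembrane proteins that mostly signal through B-type plexins, and 0 of the 6 were called in either direction by edgeR or limma-voom (0 higher and 2 lower at an unadjusted p under 0.05 by edgeR, 1 lower by DESeq2). Sema4b, the class 4 gene with the highest FPKM, was at 91.3, 70.1 and 82.6 CPM in Control and at 45.9, 53.1 and 71.2 CPM in PTN libraries. PTN 3 overlapped Control 2, and the difference was not called (log2 change -0.52, SE 0.19, adjusted p = 0.132 by edgeR), but was without PTN 3 (-0.72, adjusted p = 0.0288 by edgeR). Sema4a, known from T cells and retinal pigment epithelium, was at 3.63, 2.56 and 3.93 CPM in Control and at 1.20, 2.01 and 1.66 CPM in PTN libraries. All PTN values lay below all Control values, yet edgeR did not call the difference (log2 change -1.05, SE 0.31, adjusted p = 0.0716), while DESeq2's Wald test did (adjusted p = 0.0353). Sema4d, a ligand of plexins B1 and B2, was at 8.71 to 10.99 CPM in Control and 7.33 to 8.22 CPM in PTN (adjusted p = 0.272 by edgeR). Sema4c, Sema4f and Sema4g overlapped between groups, with log2 fold changes from -0.14 to 0.17.

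Of the 2 members of class 5, transmembrane proteins with thrombospondin repeats, 1 rose and 1 was not called. Sema5a, which binds plexins A1 and A3 and has been linked to dendritic and synaptic patterning, was at 38.0, 53.0 and 57.8 CPM in Control and at 198, 200 and 150 CPM in PTN libraries. The groups were far apart, and the rise was 3.69-fold (log2 change 1.88, SE 0.20, adjusted p = 0.0023 by edgeR), or 2.84-fold with the length trend removed (adjusted p = 0.00149 by edgeR). It was called without any 1 of the 6 libraries (edgeR adjusted p from 0.00116 to 0.0131). Sema5b was at 35.9 to 43.4 CPM in Control and 37.2 to 44.6 CPM in PTN, with a log2 change of 0.02 (SE 0.15, adjusted p = 0.95 by edgeR), whose sign turned under several alternatives.

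Class 6 semaphorins are transmembrane partners of A-type plexins, and 2 of 4 rose, where 4.93% of all tested genes rose. With the length trend removed Sema6a was still called higher and Sema6d was not, and with the replicate block neither was called. Sema6d, a ligand of plexin A1 and the semaphorin with the highest FPKM here, was at 119, 124 and 126 CPM in Control and at 237, 175 and 231 CPM in PTN libraries. Control values were nearly equal and PTN 2 was the lowest of the PTN values. The rise was 1.74-fold (log2 change 0.80, SE 0.16, adjusted p = 0.0202 by edgeR, 0.0649 to 0.104 when either PTN 1 or any Control library was left out), and 1.49-fold and not called with the length trend removed (adjusted p = 0.0768 by edgeR).

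Sema6a, which acts through plexins A2 and A4 in migrating granule cells and in axon tracts, was at 52.4, 62.5 and 70.2 CPM in Control and at 118, 109 and 92.0 CPM in PTN libraries. No PTN value reached down to Control. The rise was 1.72-fold (log2 change 0.78, SE 0.17, adjusted p = 0.0256 by edgeR, 0.051 to 0.103 when any library other than PTN 3 was left out). Sema6c was at 6.55, 6.23 and 5.29 CPM in Control and at 4.08, 4.46 and 3.80 CPM in PTN libraries, without overlap, and was not called (log2 change -0.55, SE 0.20, adjusted p = 0.131 by edgeR). Sema6b overlapped between groups (adjusted p = 0.233 by edgeR).

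Sema7a is tethered to the membrane by a GPI anchor and signals through integrin beta 1 and plexin C1. It was at 62.0, 57.2 and 64.4 CPM in Control and at 29.0, 21.0 and 27.9 CPM in PTN libraries. Both groups were tight and did not overlap. The fall was 2.35-fold (log2 change -1.23, SE 0.16, adjusted p = 0.00502 by edgeR), and it was called in every alternative tried, with folds of 2.15 to 2.50 and edgeR adjusted p up to 0.0283 when 1 library was left out.

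Levels of different genes were compared per length, in FPKM. Class 3 genes together held 10.8 ± 1.29 FPKM in Control and 31.4 ± 8.18 FPKM in PTN, class 5 genes 13.7 ± 0.915 and 26.1 ± 2.94 FPKM, and class 6 genes 43.3 ± 2.97 and 66.7 ± 4.81 FPKM (SD, n = 3 each), with no overlap between groups in any of the 3 classes. Class 4 genes held 36.4 ± 5.31 and 29.3 ± 4.57 FPKM, with overlap, and Sema7a 18.9 ± 1.41 and 8.01 ± 1.18 FPKM. These sums were not tested. In Control the order of the leading semaphorins was Sema6d (22.7 ± 1.42 FPKM), Sema4b (21.4 ± 2.99 FPKM), Sema7a (18.9 ± 1.41 FPKM) and Sema6a (12.3 ± 1.84 FPKM), the first 3 lying within or near each other's spread. In PTN cells it was Sema6d (39.2 ± 5.92 FPKM), Sema6a (21.3 ± 2.78 FPKM), Sema5a (16.9 ± 2.60 FPKM), Sema4b (14.9 ± 3.43 FPKM) and Sema3a (13.5 ± 6.95 FPKM), where the last 4 overlapped in part. As a share of all semaphorin FPKM, Sema7a took 15.3% ± 0.384 in Control and 4.94% ± 0.45 in PTN, and Sema5a 3.74% ± 0.808 and 10.5% ± 1.97.

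**Figure D4:**
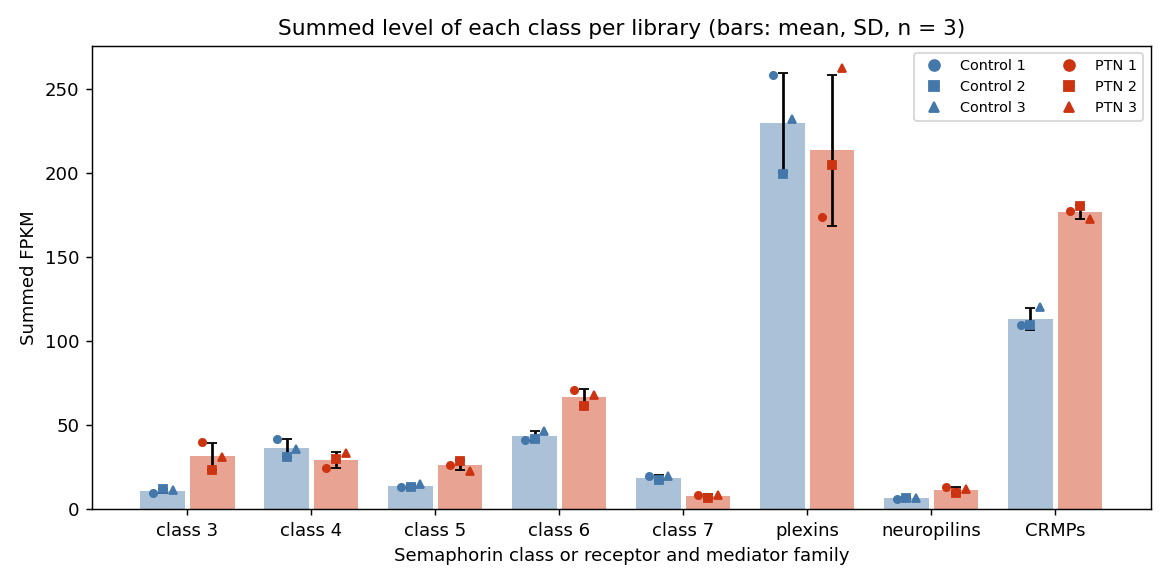
Summed FPKM of each semaphorin class, the plexins, the neuropilins and the CRMPs, with bars at the group mean, SD as error bars (n = 3) and a symbol per library. Classes 3, 5 and 6, neuropilins and CRMPs sat higher in every PTN library than in every Control library, class 7 (Sema7a) sat lower, and class 4 and the plexins overlapped.

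Among the receptors the plexins as a sum did not separate the groups, at 230 ± 29.6 FPKM in Control and 214 ± 44.9 FPKM in PTN (SD, n = 3 each). Plxnb2, a receptor of class 4 semaphorins that is used by dividing neuroblasts and granule cell precursors, led the family at 119, 84.4 and 103 FPKM in Control and 81.7, 93.8 and 136 FPKM in PTN libraries. Its spread was wide in both groups and its log2 change was 0.03 (SE 0.22, adjusted p = 0.941 by edgeR). The next plexins in Control were Plxnd1 (45.4 ± 5.92 FPKM), Plxnb1 (33.0 ± 2.82 FPKM) and Plxna1 (32.6 ± 4.35 FPKM), the last pair being indistinguishable by spread. Plxna2 (9.37 ± 0.832 FPKM) and Plxna3 (3.64 ± 0.429 FPKM) were lower, and Plxnc1, Plxnb3 and Plxna4 lay under 3 FPKM.

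Plxna4, the A-type plexin that works with neuropilin 1 in the response to Sema3a, was the plexin that rose, from a low level. It was at 2.79, 3.06 and 3.74 CPM in Control and at 6.17, 10.9 and 6.61 CPM in PTN libraries. The groups did not overlap and PTN 2 was the highest. The rise was 2.47-fold (log2 change 1.30, SE 0.28, adjusted p = 0.0258 by edgeR, 0.0874 to 0.118 when a Control library was left out). Plxna4 had the greatest length of the 35 genes, at 12.8 kb, and with the length trend removed it was 1.85-fold higher and not called (adjusted p = 0.0854 by edgeR).

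Plxnd1, the receptor of Sema3e and a partner for Sema3c with neuropilins, was at 345, 270 and 311 CPM in Control and at 189, 163 and 248 CPM in PTN libraries. Every PTN value lay below every Control value, with PTN 3 nearest to Control. edgeR did not call the difference (log2 change -0.63, SE 0.19, adjusted p = 0.078), but did without PTN 3 (-0.81, adjusted p = 0.02 by edgeR), and so did DESeq2's Wald test (adjusted p = 0.0236). As a share of all plexin FPKM, Plxnd1 took 19.7%, 19.7% and 19.8% in Control and 15.7%, 11.7% and 13.7% in PTN 1, PTN 2 and PTN 3. That share was nearly equal across Control libraries and lower in each PTN library, and it was not tested.

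Plxna2, a receptor of Sema6a, was at 93.0, 106 and 111 CPM in Control and at 143, 115 and 160 CPM in PTN libraries. The groups did not overlap, but the gap between Control 3 and PTN 2 was small and the difference was not called (log2 change 0.43, SE 0.16, adjusted p = 0.137 by edgeR, with a log2 change of 0.07 once the length trend was removed). Plxnb1 was at 211 to 250 CPM in Control and 125 to 229 CPM in PTN, and Plxnb3 at 5.71 to 6.61 and 2.29 to 6.82 CPM. Both overlapped through PTN 2, which lay among or above the Control values. Without PTN 2, Plxnb3 was called lower (adjusted p = 0.0419 by edgeR) and Plxnb1 was not called. Plxna1, Plxna3 and Plxnc1 overlapped too, with edgeR adjusted p from 0.41 to 0.69.

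Of the neuropilins Nrp1 rose and Nrp2 was not called. Nrp1, the binding subunit for Sema3a and a coreceptor of vascular endothelial growth factor, was at 15.7, 17.6 and 18.3 CPM in Control and at 39.1, 27.9 and 35.4 CPM in PTN libraries. Its Control values were close together and all PTN values were well above them. The rise was 1.99-fold (log2 change 0.99, SE 0.17, adjusted p = 0.0127 by edgeR, 0.0527 to 0.0644 when a Control library was left out), and 1.86-fold with the length trend removed (adjusted p = 0.0192 by edgeR). Nrp2, the binding subunit for Sema3f, was at 11.1 to 13.7 CPM in Control and 9.67 to 16.4 CPM in PTN, with a log2 change of 0.04 (SE 0.22, adjusted p = 0.915 by edgeR).

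**Figure D5:**
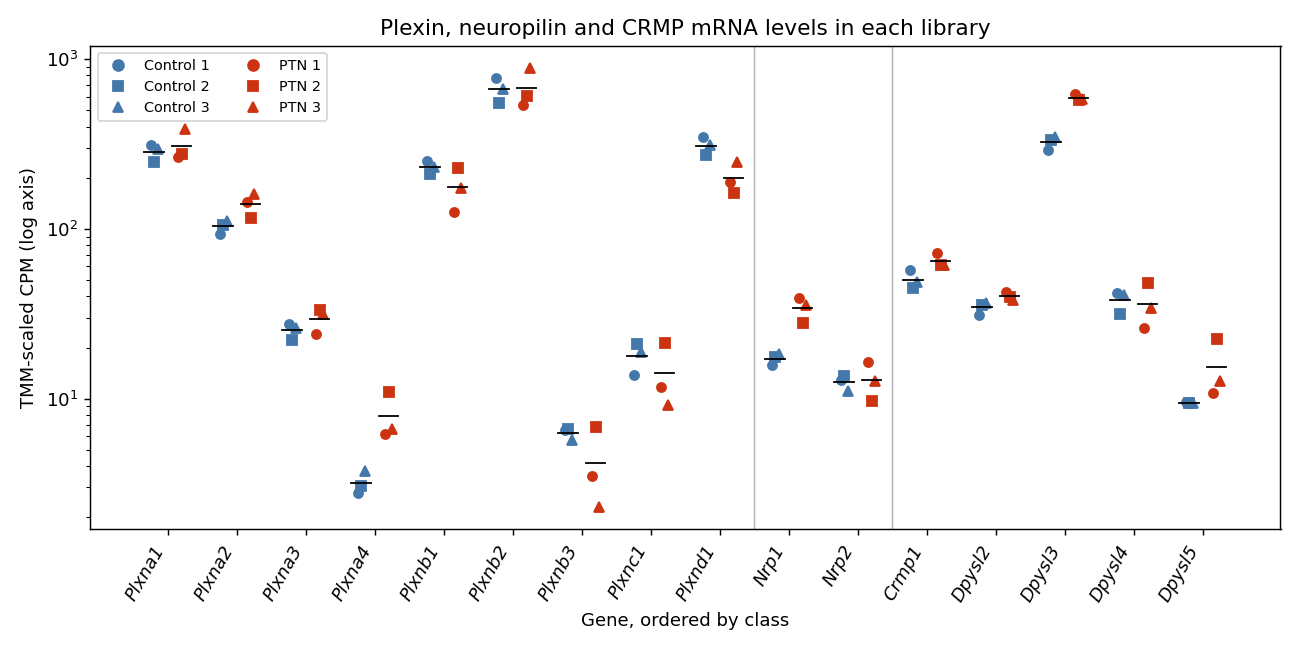
TMM-scaled CPM (log axis) of the 9 plexin, 2 neuropilin and 5 CRMP genes in each Control (blue) and PTN (red) library, with black lines at the group means. Plxna4, Nrp1 and Dpysl3 sit higher in all PTN libraries, Plxnd1 sits lower without being called, and Plxnb2, the most abundant plexin, overlaps.

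Ligands can be set beside their known partners. Sema3a rose, as did Nrp1 and Plxna4, which can form its receptor. Plxna4 was scarce, at 0.25 FPKM in Control beside 32.6 FPKM for Plxna1, and was not called with the length trend removed. The other A-type plexins, Plxna1, Plxna2 and Plxna3, were not called. For Sema3c and Sema3e, which rose 7.38-fold and 1.86-fold, the plexin receptor Plxnd1 had a negative log2 fold change that was not called. Of the neuropilins that join Plxnd1 for Sema3c, Nrp1 rose and Nrp2 was not called. For Sema5a, Sema6a and Sema6d, which rose, none of the A-type receptors Plxna1, Plxna2 and Plxna3 was called, while Plxna4, a further receptor of Sema6a, rose. None of the B-type plexins Plxnb1, Plxnb2 and Plxnb3 was called with all libraries in. For Sema7a, which fell, Plxnc1 was at 13.7 to 20.9 CPM in Control and 9.21 to 21.4 CPM in PTN (log2 change -0.33, SE 0.31, adjusted p = 0.491 by edgeR). The alternative Sema7a receptor Itgb1 averaged 738 ± 151 CPM in Control and 1201 ± 236 CPM in PTN (SD, n = 3 each, no overlap, adjusted p = 0.0764 by edgeR). Whether ligands and receptors differ in how often they moved was not tested.

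Of the CRMPs, Dpysl3 (CRMP4) rose. It was at 291, 333 and 349 CPM in Control and at 625, 571 and 578 CPM in PTN libraries, and both groups were tight. The rise was 1.82-fold (log2 change 0.87, SE 0.14, adjusted p = 0.00964 by edgeR, 0.0504 to 0.0589 when a Control library was left out). Dpysl3 was also the most abundant CRMP, at 70.9 ± 6.28 FPKM in Control and 126 ± 4.30 FPKM in PTN (SD, n = 3 each), or 62.7% ± 3.34 and 71.6% ± 2.77 of all CRMP FPKM.

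Crmp1 was at 56.8, 44.8 and 48.7 CPM in Control and at 71.6, 61.3 and 61.0 CPM in PTN libraries. The groups did not overlap, and the difference was not called (log2 change 0.37, SE 0.15, adjusted p = 0.165 by edgeR). Dpysl2 (CRMP2), the tubulin-binding member best studied in axon growth, was at 31.2 to 36.7 CPM in Control and 38.3 to 42.4 CPM in PTN (adjusted p = 0.328 by edgeR). Dpysl5 was at 9.41 to 9.51 CPM in Control and at 10.9, 22.4 and 12.6 CPM in PTN libraries, PTN 2 standing far above (adjusted p = 0.147 by edgeR). Dpysl4 overlapped between groups. In Dpysl2, Dpysl5, Crmp1 and Dpysl3 all PTN libraries lay above all Control libraries, as they did for 15.7% of all tested genes. Young neuron markers, which CRMPs accompany in the brain, summed to 279 to 418 CPM in Control and 337 to 556 CPM in PTN, with 1 of 10 called higher (Elavl3) and 0 lower. Most of that sum was Map2, with means of 287 ± 67.6 CPM in Control and 397 ± 109 CPM after PTN (SD, n = 3 each, not called). The neuronal tubulin gene Tubb3 was at 29.5 ± 2.54 and 17.6 ± 6.33 CPM (SD, n = 3 each), below Control in every PTN library and not called (adjusted p = 0.123 by edgeR). Stmn2, Syt1 and Neurod1 also had negative log2 fold changes, from -0.43 to -0.39, and were not called. Snap25 and Rbfox3 went the other way, with log2 fold changes of 1.35 and 1.23 and every PTN library above every Control library. Both were scarce, at means of 0.505 and 0.448 CPM in Control, and not called (adjusted p = 0.142 and 0.123 by edgeR). Elavl4 overlapped between groups (log2 change 0.14, not called). Dcx averaged 3.95 CPM in Control and 4.73 CPM in PTN (adjusted p = 0.747 by edgeR). The part of this cell type in the rise of Dpysl3 was not tested.

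Other genes of semaphorin signalling were followed in a list of 51, of which 46 were tested. By edgeR 2 of the 46 rose and 2 fell, a share near that of all tested genes (4.93% higher, 3.06% lower, 7.99% either), with a median log2 fold change of 0.09 beside 0.03 over all genes. The count is therefore not a result about this list. Those that rose are adhesion molecules that join neuropilins and plexins in the receptor complex. Chl1 was at 91.3, 157 and 150 CPM in Control and at 432, 384 and 255 CPM in PTN libraries, a rise of 2.69-fold (adjusted p = 0.0146 by edgeR). Nrcam was at 128, 189 and 179 CPM in Control and at 327, 399 and 245 CPM in PTN libraries, a rise of 1.96-fold (adjusted p = 0.033 by edgeR, 0.07 to 0.129 when any library other than PTN 3 was left out). For both genes the groups did not overlap and Control 1 was the lowest library.

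Those that fell encode proteases of the cell surface and secretory path. Pcsk6, a proprotein convertase of the furin family, was at 25.2, 18.6 and 22.9 CPM in Control and at 7.33, 13.0 and 12.1 CPM in PTN libraries, a fall of 2.06-fold (adjusted p = 0.0351 by edgeR, 0.0565 to 0.123 when either PTN 1 or any Control library was left out). Mmp14, a membrane-bound metalloprotease, was at 178, 161 and 168 CPM in Control and at 99.7, 115 and 118 CPM in PTN libraries, a fall of 1.52-fold (adjusted p = 0.0324 by edgeR, 0.0857 to 0.126 when either PTN 1 or any Control library was left out). None of 3 MICAL oxidoreductases, 9 small GTPases, 10 GTPase regulators or adaptors and 9 tested kinases passed the edgeR test, where 7.99% of all tested genes did. The lowest adjusted p by edgeR in these groups was that of Rock2 at 0.0543 (mean 52.6 ± 14.9 CPM in Control, 116 ± 41.6 CPM in PTN, SD, n = 3 each). At an unadjusted p under 0.05 these 31 genes held 2 higher and 3 lower, DESeq2 called 2 higher and 0 lower, and limma-voom called 0. At an unadjusted p under 0.05 by edgeR, 10 of the 46 tested genes of the list were higher and 5 lower, beside 14.7% and 12.2% of all tested genes.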

How the data were processed

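RNA of 6 libraries was analysed, 3 from cells given PTN and 3 given PBS, and groups were taken from the labels. Per the labels' protocols, RNA came from a column kit and libraries from a SMARTER mRNA kit. Neither the aligner, counting program and annotation nor the build is named in the sources used here. The authors' table, as deposited, has expected counts per gene, not scaled between libraries, and FPKM values, which the authors scaled by gene length and library depth. Columns are named by group initial and replicate, and every value column was matched.

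Expected counts were rounded, filtered with filterByExpr (13161 of 22322 genes) and scaled by TMM. The quasi-likelihood test of edgeR 4.0.16 (R 4.3.3) compared PTN with Control, with Benjamini-Hochberg adjustment over all tested genes and calls at an adjusted p under 0.05. Standard errors are the log2 fold change over the square root of F. The biological coefficient of variation was 0.208. 1 CPM stands for 19.2 to 26.2 counts. In data simulated from this comparison (13058 genes), 51.5% of genes changed 2-fold and 91.9% of those changed 4-fold were called. So were 6 unchanged genes. The simulation gave both groups the same spread per gene and had no length trend, so recovery in the real data may differ.

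Gene lengths were derived from count, FPKM and library total. Alternatives were other scalings and filters, DESeq2 1.42.0, limma-voom (limma 3.58.1), the replicate number as a block, removal of a loess trend with log2 length from each library, and leaving out each library. Values in every library were given for called genes, for the 2 most abundant ligands, receptors and CRMPs, and for the 6 uncalled genes of smallest p. Of the 51 other pathway genes, called ones were named, up to 4 in each direction; Itgb1, Rock2 and the single marker genes named were chosen after their values were seen. The members and lists were chosen with earlier results of these data known. All 36 identifiers had the same symbol in the reference gene name table. Counts of any pair of libraries in a group differed beyond sampling noise (chi-square over degrees of freedom 11.9 or more).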

Additional observations from a re-analysis of the deposited data

How the results depend on the processing

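Of the tested genes, Sema3b, Sema3d, Sema4a, Sema4f, Sema6c, Plxna4 and Plxnb3 rested on 9 to 248 counts per library, and Sema3c on 73 in its lowest. Genes of the family called higher (10) numbered 6 with the length trend removed, 4 with length trend and block together, 5 when a 2-fold change was also asked, and 2 to 10 when 1 library was left out, the low counts being 2, 3 and 2 without Control 1, Control 2 and Control 3. Genes called lower (1) numbered 3 by DESeq2 and 3 at an adjusted p under 0.1, and 1 to 3 with 1 library left out. Pathway genes called higher (2) numbered 7 by DESeq2, 1 with block and length trend, 1 at 2-fold, 7 at an adjusted p under 0.1 and 1 to 8 with 1 library left out; those called lower (2) numbered 1 with the block, 1 with block and length trend, 1 at 2-fold and 0 to 3 with 1 library left out. Over all genes 649 were higher and 403 lower, but 1134 and 774 by DESeq2, 427 and 209 at 2-fold, 1089 and 824 at an adjusted p under 0.1, 201 to 1273 and 130 to 904 with 1 library left out, and 364 higher with block and length trend. Leaving out a library also leaves fewer degrees of freedom.

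Same-numbered libraries deviated together in pair 2 (r = 0.36 across genes) but not in pairs 1 and 3 (r = -0.51 and -0.0049), so the numbers were not taken to pair the samples. With the replicate block 7 genes of the family were higher and 1 lower, beside 454 and 272 of all tested genes. Sema3e, Sema6a and Sema6d then lost their calls, as did Mmp14 (adjusted p = 0.108 by edgeR).

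Log2 fold changes near 0 turned sign in genes that were not called. With the length trend removed, Sema4g was at -0.17, Sema5b at -0.16, Plxna1 at -0.20, Plxna3 at -0.0498, Plxnb2 at -0.23 and Nrp2 at -0.23, and with the replicate block as well at -0.18, -0.15, -0.23, -0.055, -0.25 and -0.25. With upper-quartile factors Sema4g was at -0.022, Sema5b at -0.029, Plxnb2 at -0.017 and Nrp2 at -0.0089. Sema4g was at -0.011 in limma-voom and -0.0074 with the replicate block. When 1 library was left out, Sema4g ranged from -0.24 to 0.19, Sema5b from -0.10 to 0.077, Plxna1 from -0.078 to 0.22, Plxnb2 from -0.21 to 0.17, Nrp2 from -0.17 to 0.21 and Dpysl4 from -0.34 to 0.11. The share of all calls that were higher was 61.7%, and over all alternatives 55.3% (length trend removed) to 69% (without PTN 1), with 56% for upper-quartile factors. The cause of these shifts was not tested.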

Other observations

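PTN libraries differed among themselves more than Control libraries did for most of these genes. The range over 3 libraries was wider in PTN than in Control for 26 of the 35 genes, which is 74.3%, beside 71.7% of all tested genes, so the family was like the rest of the table in this. The library standing farthest from the other PTN libraries was PTN 2 for 16 genes, PTN 3 for 10 and PTN 1 for 9. In Sema3f, Nrp1, Sema6d and Sema7a PTN 2 had the lowest PTN value, and in Sema3b, Plxna4, Plxnb3, Plxnc1, Dpysl4 and Dpysl5 it had the highest.

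Promoters of the family in the RefSeq table (40 windows of 28 genes) had a median G and C content of 63.2%, beside 52.7% over all 32851 windows. The GC box GGGCGG was found in 30 of the 40 windows, and the E-box and the AP-1 motif in 3 each. The TATA box, the cAMP response element and the forkhead motif were found in 0 of the 40.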
